A study of Homo sapiens with 24 samples.

Results

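The 9 genes described here encode proteins stored in the granules of neutrophils and their precursors, together with lysozyme: MPO, ELANE, PRTN3, AZU1, CTSG, PRSS57, LYZ, CST7 and SRGN. They were taken by gene symbol from a count table of 58735 genes, and all 9 passed the filter on low counts in both cell lines. The study sequenced messenger RNA of the established cell lines MOLM-13 and THP-1, which derive from human acute myeloid leukemias and both carry the MLL-AF9 fusion gene. Both lines grew in the same serum-supplemented medium. One group of each line was given vitamin C as L-ascorbic acid (LAA), which the DNA-demethylating TET enzymes use, at 250 µM and another olaparib, an inhibitor of poly-ADP-ribose polymerases, at 1 µM. A further group received both compounds at these doses (the combination), and the control group received the vehicles of both, PBS and DMSO. Every group was collected after 72 h, and each of the 8 groups of line and treatment holds 3 libraries. The labels do not say whether the 3 libraries came from separate cultures, so the tests below see only library-to-library spread, which may be technical.

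Neutrophil precursors make a burst of granule proteins at the promyelocyte stage and pack them into azurophil (primary) granules, and leukemia cells arrested near that stage keep part of this expression. Neutrophil elastase (ELANE), proteinase 3 (PRTN3), cathepsin G (CTSG) and the PRSS57 product are serine proteases, and azurocidin (AZU1) is an antimicrobial relative without protease activity. The proteases are activated by cathepsin C (CTSC), which cystatin F (CST7) inhibits, and are held in the granule on serglycin (SRGN), a proteoglycan core protein. Myeloperoxidase (MPO) is a heme enzyme that makes hypochlorous acid. Lysozyme (LYZ) cleaves bacterial cell walls, and monocytes and macrophages express it as well as granulocytes.

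AZU1, PRTN3 and ELANE lie side by side on chromosome 19 (hg38), from 825097 to 832018, 840960 to 848175 and 851014 to 856247, all on the plus strand. PRSS57 lies nearby on the minus strand of chromosome 19, from 685546 to 695498. CTSG lies on chromosome 14 from 24573522 to 24576260, LYZ on chromosome 12 from 69348341 to 69354234 and MPO on chromosome 17 from 58269856 to 58280935. CST7 lies on chromosome 20 from 24949230 to 24959928 and SRGN on chromosome 10 from 69088106 to 69104811. The RefSeq table (GRCh38.p14) held a promoter window for 4 of the 9 genes. These 4, all of the serine protease family, are shown because they are the members with a window and their genes took different courses with treatment. The windows are the 250 bases before the RefSeq start, on the gene's own strand: chr19:840749-840998 (PRTN3), chr19:827587-827836 (AZU1), chr14:24576251-24576500 (CTSG) and chr19:695453-695702 (PRSS57). All 4 windows end within the gene intervals given above. The AZU1 window lies wholly inside its interval, downstream of the gene start given there. Capitals mark matches, on either strand, to GAGGAA (the letters of a PU.1-type core), to TTNNGNAA (C/EBP-type) or to TGTGGT (RUNX-type).
PRTN3: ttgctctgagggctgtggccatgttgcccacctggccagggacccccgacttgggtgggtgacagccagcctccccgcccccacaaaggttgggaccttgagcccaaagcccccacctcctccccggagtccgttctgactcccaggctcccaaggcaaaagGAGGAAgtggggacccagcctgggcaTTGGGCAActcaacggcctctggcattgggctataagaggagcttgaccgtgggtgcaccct
AZU1: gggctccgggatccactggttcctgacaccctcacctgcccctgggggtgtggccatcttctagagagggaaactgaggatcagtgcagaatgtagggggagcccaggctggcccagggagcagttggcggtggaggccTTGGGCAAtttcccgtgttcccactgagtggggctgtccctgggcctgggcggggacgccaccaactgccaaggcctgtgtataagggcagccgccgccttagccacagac
CTSG: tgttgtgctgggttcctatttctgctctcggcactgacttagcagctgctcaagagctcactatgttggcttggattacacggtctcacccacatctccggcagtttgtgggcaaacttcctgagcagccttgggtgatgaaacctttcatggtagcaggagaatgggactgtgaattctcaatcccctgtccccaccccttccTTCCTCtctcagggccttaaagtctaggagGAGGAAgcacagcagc
PRSS57: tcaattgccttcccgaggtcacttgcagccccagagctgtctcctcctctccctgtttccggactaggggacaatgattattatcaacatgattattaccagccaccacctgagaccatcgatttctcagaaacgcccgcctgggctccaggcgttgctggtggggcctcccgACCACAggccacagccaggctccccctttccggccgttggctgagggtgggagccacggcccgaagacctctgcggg
The PRTN3 window held TTGGGCAA, a match to the C/EBP-type letters, at -62 to -55 from the start, and GAGGAA at -88 to -83. In AZU1 the same letters TTGGGCAA stood at -111 to -104. CTSG held GAGGAA at -16 to -11 and its reverse complement at -46 to -41, and PRSS57 held the reverse complement of the RUNX-type letters at -77 to -72. No marked match overlapped another. Of 35116 windows of the same length, 23.6% held GAGGAA, 33.2% TTNNGNAA and 11% TGTGGT. The MYB-type letters AACNG were in all 4 windows and in 70.6% of all windows, and are not marked. GC content was 64.4% in PRTN3, 64.8% in AZU1, 52.8% in CTSG and 60.8% in PRSS57, against a median of 58% over all windows. A match here describes letters, not binding.

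Total counts per library ran from 18666259 to 25265870, so the members with the lowest counts, CST7, PRSS57 and MPO, rest on 21 to 492 counts per library. Mitochondrially encoded genes took 6.63 to 11.02% of counts. Their share was higher in every combination library (8.73 to 9.31% under the MOLM-13 label, 7.77 to 9.47% in THP-1) than in the vehicle libraries (6.67 to 6.74% and 6.81 to 7.49%), and its part in the results was not tested. Under the MOLM-13 label it was above vehicle with LAA (7.01 to 8.14%) and olaparib (8.22 to 11.02%) as well, while in THP-1 both overlapped vehicle (6.94 to 7.70% and 6.63 to 7.12%). All 12 markers of myeloid leukemia cells had counts in every group. CD34 averaged only 0.23 CPM (counts scaled to library size) under the MOLM-13 label and 0.31 in THP-1, and MEIS1 0.13 CPM in THP-1. The sum of 9 erythroid and megakaryocyte markers was at most 2.11 CPM in any library. That of 6 B cell markers ran from 13.2 to 22.6 CPM. The libraries labelled MOLM-13 stand apart in 1 respect that touches several results below. A set of 15 genes is nearly silent in THP-1, with at most 12 counts each over its 12 libraries, and had at least 20 each over the 3 olaparib libraries labelled MOLM-13. The set was chosen with earlier results of these data known, and its olaparib level, being part of the choice, is a description only. Their summed level in vehicle libraries labelled MOLM-13 was 31.5, 32.6 and 30.8 CPM. It was 5.42, 4.80 and 5.79 CPM with LAA, 20.06, 17.66 and 20.01 CPM with olaparib and 5.23, 3.20 and 3.83 CPM with the combination, while no THP-1 library exceeded 0.672 CPM. Among them MTAP and EMD had 0 counts in THP-1 and averaged 2.10 and 4.68 CPM in vehicle libraries labelled MOLM-13. FLT3, a growth factor receptor of these cells, fell as well under the MOLM-13 label, from 36.0 ± 1.93 CPM to 7.83 ± 1.65 with LAA and 10.0 ± 0.934 with the combination (SD, n = 3, edgeR adjusted p = 2.68e-08 and 3.43e-08), beside 9.24 ± 0.409 in THP-1 vehicle. Whether the libraries under this label, vehicle and olaparib included, hold RNA of MOLM-13 cells alone was not tested. The part of these shifts in the member results was not tested either. In vehicle 4.48% of 17089 genes were called different between this label and THP-1. A like change under this label and in THP-1 is not taken as independent. Every rise or fall given under the MOLM-13 label is therefore one between libraries so labelled. The THP-1 treatment tests were fitted on that line alone and use none of these libraries, whereas CPM values share scaling factors over all 24 libraries and the differences between lines use both.

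Across the 8 groups the members spanned a wide range of messenger RNA levels. On the deposited FPKM scale (fragments scaled to gene length and library size), which allows levels of different genes to be compared, the highest were SRGN, ELANE, PRTN3 and AZU1. In vehicle their means were 1708 ± 199, 1470 ± 113, 1435 ± 147 and 1040 ± 142 FPKM in libraries labelled MOLM-13 and 1465 ± 56.6, 1839 ± 47.0, 1194 ± 44.6 and 1140 ± 44.4 FPKM in THP-1 (SD, n = 3). Among 19951 protein-coding genes ranked by group mean, these 4 stood between ranks 17 and 43 in every group. CTSG followed at 340 ± 34.9 FPKM in vehicle libraries labelled MOLM-13 and 606 ± 12.4 in THP-1, and LYZ at 77.3 ± 6.25 and 82.5 ± 4.34. The lowest were PRSS57, CST7 and MPO. PRSS57 was at 18.8 ± 0.967 FPKM in vehicle libraries labelled MOLM-13 and 2.39 ± 0.416 in THP-1. CST7 was at 6.71 ± 1.36 and 1.75 ± 0.549 FPKM, and MPO at 2.46 ± 0.0359 and 1.62 ± 0.348. In vehicle SRGN ranked above ELANE under the MOLM-13 label and below it in THP-1, and the ranges of ELANE, PRTN3 and SRGN overlapped under the MOLM-13 label. The order also varied with treatment: with the combination SRGN (1945 to 2008 FPKM under the MOLM-13 label, 1985 to 2118 in THP-1) lay above every ELANE library (1260.1 to 1381 and 1390.5 to 1616). MPO had one of the lowest messenger RNA levels of the 9, at rank 8695 in vehicle libraries labelled MOLM-13 and 9778 in THP-1. All 9 together took between 0.736 ± 0.00204% of counts (olaparib, labelled MOLM-13) and 0.854 ± 0.0295% (combination, THP-1). In bulk RNA, fewer cells with a transcript and less transcript per cell cannot be told apart.

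**Figure D1:**
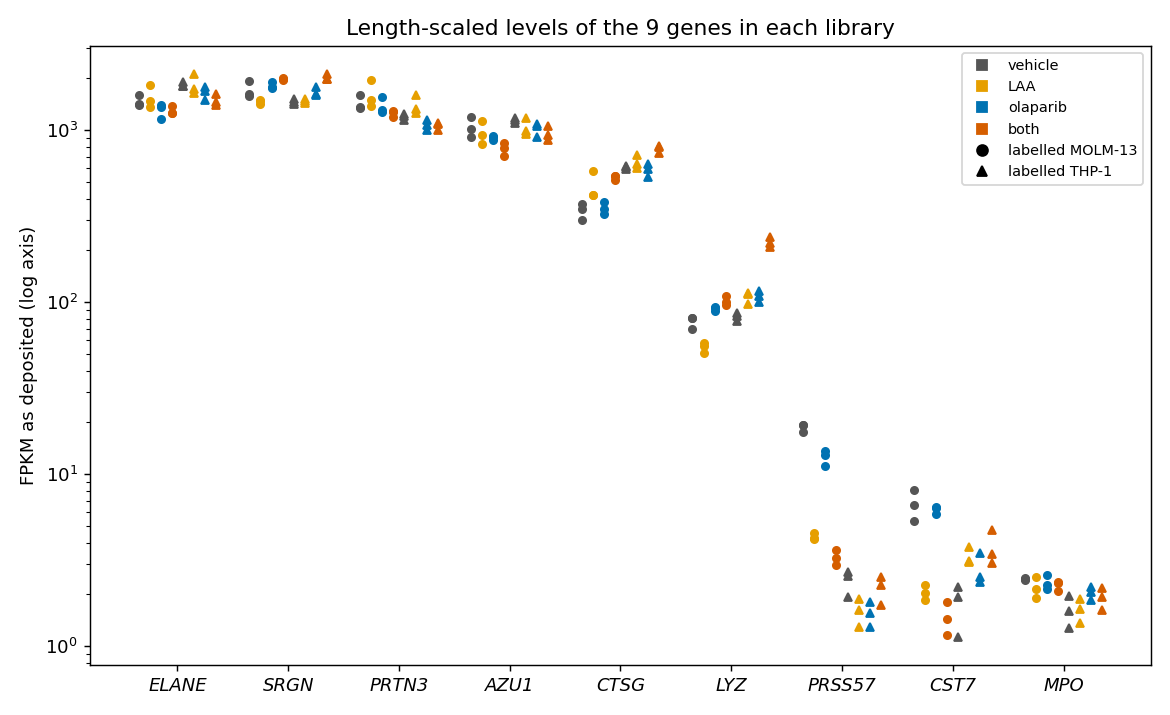
FPKM as deposited (log axis) of the 9 genes in each of the 24 libraries; circles are libraries labelled MOLM-13, triangles THP-1, and colours the 4 treatments. SRGN, ELANE, PRTN3 and AZU1 lie at the top in every group, CTSG and LYZ below them, and PRSS57, CST7 and MPO at the bottom, with PRSS57 and CST7 spread most.

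The first question of the design was what each treatment changed against vehicle. A member was called where the edgeR quasi-likelihood test, adjusted over all genes tested, gave a p under 0.05. In THP-1, LAA raised 1 of the 9 members and lowered 0, where 1.49% of 16331 genes were called, 0.937% higher and 0.551% lower. Olaparib raised 1 and lowered 0 (0.269% of all genes called, 0.184% higher and 0.0857% lower), and LYZ was the member in each case. ELANE, PRTN3, AZU1, PRSS57, CST7 and SRGN had an unadjusted edgeR p under 0.05 with olaparib but were not called. How many of all 16331 genes did so is not given here, so no wider response to olaparib is read from it. The combination raised 4, LYZ, CST7, SRGN and CTSG, and lowered 2, ELANE and AZU1, where 27.1% of all genes were called, 13.5% higher and 13.5% lower. With LAA under the MOLM-13 label, CTSG rose and PRSS57, CST7 and LYZ fell, 4 of 9 where 1.88% of 16160 genes were called, 0.792% higher and 1.08% lower. Olaparib gave no call among the 9 with edgeR, where 0.00619% of all genes, 1 gene, were called, higher, and 0% lower. At an unadjusted edgeR p under 0.05 there were 2, PRSS57 and LYZ. The share of all genes under that unadjusted p is not given here. DESeq2 called 1 of the 9, PRSS57, and 22 genes in all. The combination raised CTSG and LYZ and lowered PRSS57, CST7 and AZU1, 5 of 9 where 12.2% of all genes were called, 4.85% higher and 7.35% lower. The median log2 fold change of the 9 was 0.23 with the combination in THP-1 and -0.17 in libraries labelled MOLM-13, against -0.012 and 0.0025 over all genes. The 3 comparisons within a line share its vehicle libraries.

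**Figure D2:**
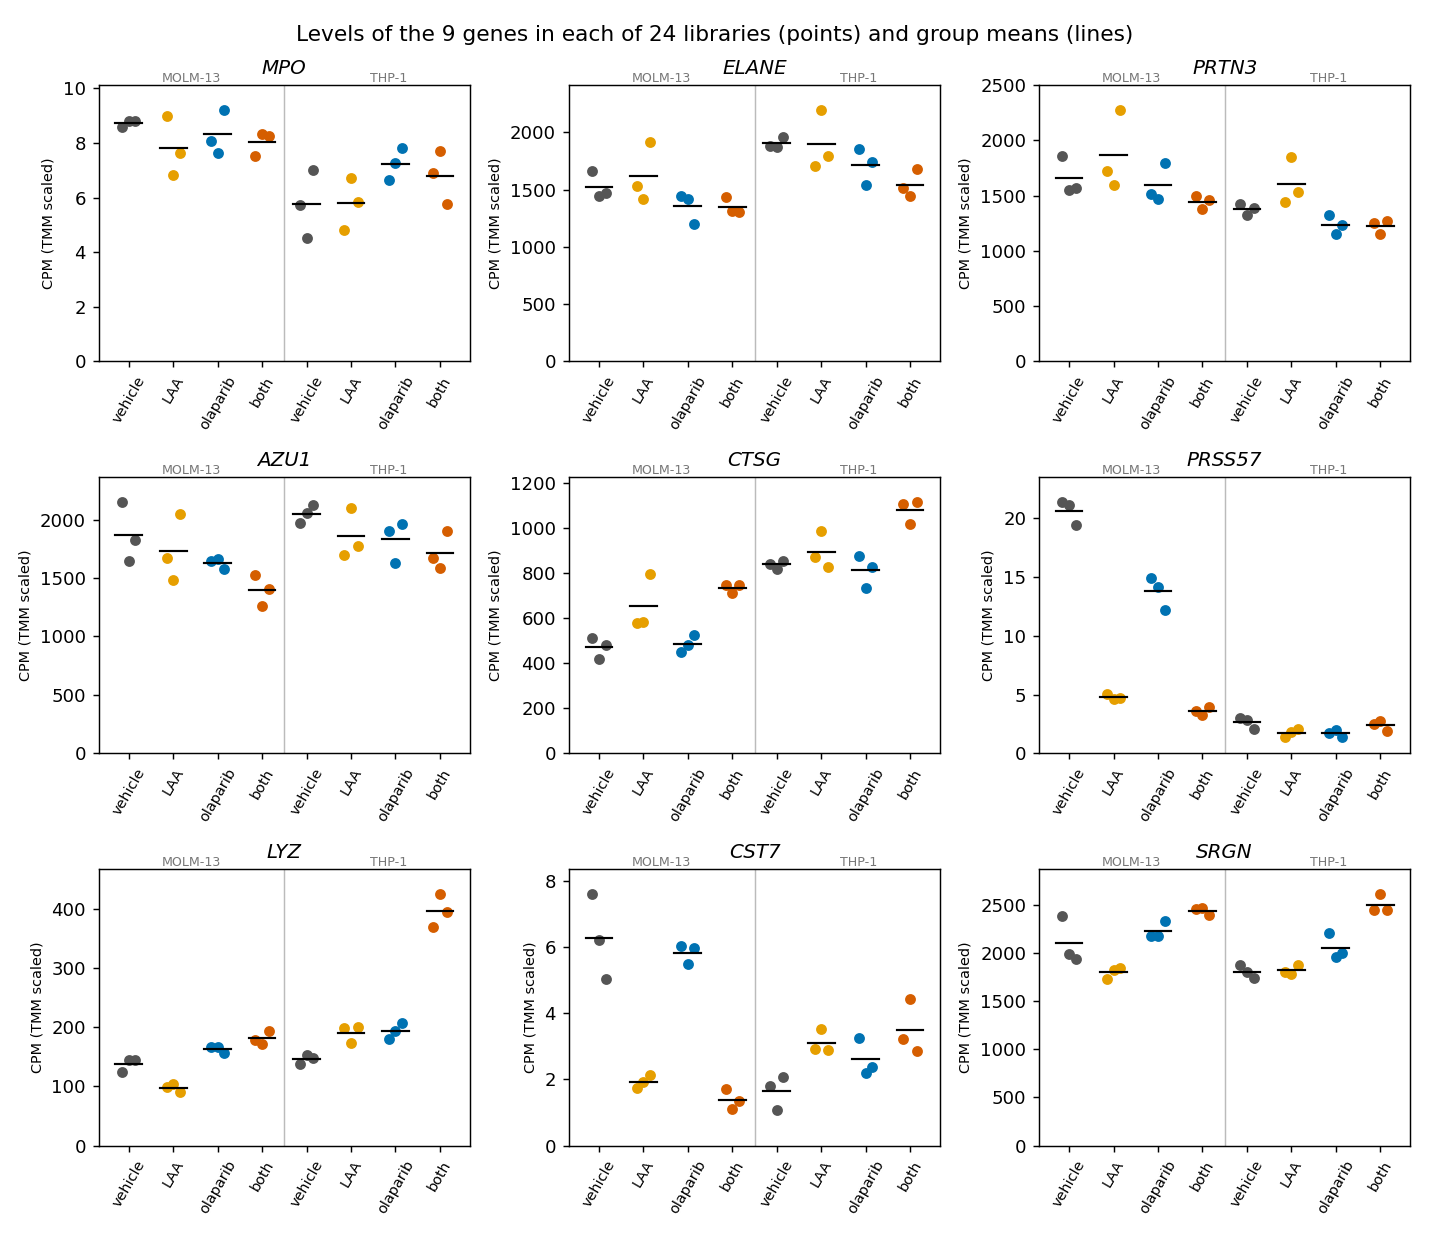
Level in CPM of each gene (1 panel each, axis from 0) in every library (points) with the mean of each group (lines), for vehicle, LAA, olaparib and the combination in both lines. LYZ is highest in the 3 THP-1 libraries with the combination, PRSS57 is highest in the vehicle and olaparib libraries labelled MOLM-13, and MPO shows no called treatment difference ("both" marks the combination).

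LYZ, the wall-cleaving enzyme, was the 1 member called with every treatment in THP-1. It was at 139, 153 and 149 CPM in the vehicle libraries, 198, 173 and 199.8 with LAA, 179.7, 193 and 207 with olaparib and 369.98, 425 and 395 with the combination. The vehicle libraries lie below all others, the single treatments overlap each other, and the combination lies above everything else. The log2 fold change was 0.37 ± 0.07 for LAA (1.30-fold, edgeR adjusted p = 0.00288) and 0.40 ± 0.07 for olaparib (1.32-fold, edgeR adjusted p = 0.00613). The olaparib call was lost without vehicle replicate 1 (edgeR adjusted p = 0.0634). The combination gave 1.42 ± 0.07 (2.68-fold, edgeR adjusted p = 7.88e-15). It exceeded LAA alone by 1.05 and olaparib alone by 1.03 on the log2 scale (edgeR adjusted p = 5.57e-12 and 8.76e-12). The excess over the sum of both single effects, the interaction, was 0.65 ± 0.10 on the log2 scale (95% interval 0.45 to 0.86, edgeR adjusted p = 5.17e-05).

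In the libraries labelled MOLM-13, LYZ moved in opposite directions with LAA and with the combination. Vehicle libraries were at 125, 144 and 144 CPM, LAA libraries at 99.1, 103 and 89.9, olaparib libraries at 167, 166 and 157, and combination libraries at 178, 171 and 194. No LAA library reached the lowest vehicle library, and every combination library lay above the highest. With LAA the log2 fold change was -0.50 ± 0.08 (edgeR adjusted p = 0.00189), with the combination 0.40 ± 0.08 (edgeR adjusted p = 0.00241). All 3 olaparib libraries lay above the vehicle libraries too, at a log2 difference of 0.25 ± 0.08 that was not called (edgeR adjusted p = 0.494). The combination exceeded LAA by 0.89 on the log2 scale (edgeR adjusted p = 3.62e-07). The interaction was 0.65 ± 0.11 (95% interval 0.41 to 0.88, edgeR adjusted p = 0.00315). LYZ after LAA, at a mean of 97.5 CPM, lay below the vehicle level of both lines, 138 and 147 CPM. Ranked by mean over all 8 groups, LYZ ran from LAA labelled MOLM-13, over both vehicle groups, olaparib and combination labelled MOLM-13 (163 and 181 CPM), and LAA and olaparib in THP-1 (190.5 and 193 CPM), to the combination in THP-1 (396 CPM). The ranges of both vehicle groups overlapped, as did those of LAA, olaparib and the MOLM-13-labelled combination between 171 and 207 CPM.

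CTSG, the protease that also acts on the surface of activated neutrophils, was higher with the combination in THP-1 and under the MOLM-13 label. In THP-1 it stood at 843, 821 and 857 CPM in vehicle and 1106, 1019 and 1116 CPM with the combination, with no overlap. LAA libraries were at 873, 988 and 829 CPM and olaparib libraries at 877, 735 and 828 CPM, both overlapping vehicle. With the combination the log2 fold change was 0.35 ± 0.06 (1.28-fold, edgeR adjusted p = 0.000155), and LAA and olaparib alone 0.09 ± 0.06 and -0.05 ± 0.06 (edgeR adjusted p = 0.629 and 0.887). The combination exceeded olaparib by 0.40 and LAA by 0.26 on the log2 scale (edgeR adjusted p = 4.14e-05 and 0.00419). The latter was not called without LAA replicate 3 (edgeR adjusted p = 0.051). An interaction of 0.31 ± 0.09 (edgeR adjusted p = 0.0367) was lost in 8 of 12 fits that left out 1 library, with adjusted p up to 0.149.

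In the libraries labelled MOLM-13, CTSG was at 514, 418 and 481 CPM in vehicle, 581, 585 and 798 CPM with LAA, 449.5, 482 and 526 CPM with olaparib and 747, 711 and 747 CPM with the combination. LAA and combination libraries all lay above the vehicle libraries, and olaparib libraries overlapped them. The log2 fold change was 0.48 ± 0.11 with LAA (edgeR adjusted p = 0.0253) and 0.64 ± 0.11 with the combination (edgeR adjusted p = 0.000515). The LAA call rests on few libraries: without LAA replicate 3 the value was 0.31 (edgeR adjusted p = 0.0921), without vehicle replicate 2 or 3 the adjusted p was 0.174 or 0.0836, and a fit of the 6 libraries alone gave 0.0792. The means with LAA (654 CPM) and with the combination (735 CPM) lay between the vehicle means of the lines, 471 CPM in libraries labelled MOLM-13 and 840.3 CPM in THP-1.

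ELANE and AZU1, neighbours on chromosome 19, were lower with the combination in THP-1. ELANE stood at 1886, 1871 and 1963 CPM in vehicle and 1514, 1442 and 1678 CPM with the combination, with no overlap (log2 fold change -0.31 ± 0.07, 1.24-fold lower, edgeR adjusted p = 0.00224). AZU1 stood at 1969, 2057 and 2126 CPM in vehicle and 1672, 1582 and 1901 CPM with the combination, again without overlap (-0.26 ± 0.07, edgeR adjusted p = 0.00867). The AZU1 call was lost without vehicle replicate 3 (edgeR adjusted p = 0.0536) and without combination replicate 2 (edgeR adjusted p = 0.0769). Both genes showed smaller, uncalled differences with the single compounds in THP-1: ELANE -0.01 with LAA and -0.15 with olaparib, AZU1 -0.15 and -0.16 on the log2 scale.

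In the libraries labelled MOLM-13, AZU1 was at 2148, 1641 and 1825 CPM in vehicle and 1525, 1262 and 1409.7 CPM with the combination, and the groups did not overlap. The log2 fold change was -0.42 ± 0.11 (1.34-fold lower, edgeR adjusted p = 0.0165). It was no longer called without vehicle replicate 1 (-0.31, edgeR adjusted p = 0.106), combination replicate 2 (0.112) or combination replicate 3 (0.0622). ELANE there was at 1659, 1445 and 1469 CPM in vehicle and 1434, 1310.3 and 1305 CPM with the combination, a log2 difference of -0.17 ± 0.10 (edgeR adjusted p = 0.298). All 3 combination libraries lay below the vehicle libraries, but the difference did not pass the test.

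PRTN3, the gene between AZU1 and ELANE, differed between the combination and LAA but not, by the test, between any treatment and vehicle. In THP-1 it ran from 1323 to 1428 CPM in vehicle, 1443 to 1852 CPM with LAA, 1149 to 1328 CPM with olaparib and 1156 to 1273 CPM with the combination. The combination gave -0.40 on the log2 scale against LAA (edgeR adjusted p = 0.000125) and -0.18 ± 0.07 against vehicle (edgeR adjusted p = 0.0572). LAA against vehicle gave 0.22 ± 0.07 (edgeR adjusted p = 0.138), with all 3 LAA libraries above the vehicle libraries. ELANE too was lower with the combination than with LAA in THP-1 (-0.30, edgeR adjusted p = 0.00411), a value that was -0.19 without LAA replicate 2 (edgeR adjusted p = 0.0486). In libraries labelled MOLM-13 the combination was lower than LAA for PRTN3 (-0.37, edgeR adjusted p = 0.0357). Without LAA replicate 3, the highest library at 2275 CPM, that value was -0.20 (edgeR adjusted p = 0.212), and leaving out any combination replicate also ended the call. ELANE, PRTN3 and CTSG of the MOLM-13 label all had their highest value in LAA replicate 3.

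PRSS57, which encodes a trypsin-like granule protease with arginine specificity, showed the largest fold change of the proteases, in libraries labelled MOLM-13. It was at 21.3, 21.1 and 19.4 CPM in vehicle, 5.01, 4.60 and 4.69 CPM with LAA, 14.9, 14.2 and 12.2 CPM with olaparib and 3.57, 3.24 and 3.98 CPM with the combination. The 4 groups did not overlap one another. The log2 fold change was -2.11 ± 0.13 with LAA (4.32-fold lower, edgeR adjusted p = 2.68e-08) and -2.52 ± 0.14 with the combination (5.73-fold lower, edgeR adjusted p = 6.76e-10). Olaparib gave -0.58 ± 0.12 (edgeR adjusted p = 0.177, DESeq2 adjusted p = 0.0493). As a share of vehicle these levels were 23.1, 66.7 and 17.5% with LAA, olaparib and the combination, beside 16.9, 60.8 and 12.9% for the summed genes that are nearly silent in THP-1, which were chosen in part by their olaparib counts. In THP-1 PRSS57 was already low, at 2.11 to 2.98 CPM in vehicle, and its log2 differences of -0.59 ± 0.29, -0.63 ± 0.29 and -0.15 ± 0.29 with LAA, olaparib and the combination were not called (edgeR adjusted p = 0.426, 0.51 and 0.748). The means with LAA and the combination under the MOLM-13 label, 4.77 and 3.60 CPM, lay between the vehicle means of that label and of THP-1 (20.6 and 2.63 CPM).

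CST7, the inhibitor of the protease-activating enzyme cathepsin C, changed in opposite directions under the 2 labels. Libraries labelled MOLM-13 were at 7.60, 6.21 and 5.05 CPM in vehicle, 1.74, 1.91 and 2.12 CPM with LAA, 6.04, 5.49 and 5.97 CPM with olaparib and 1.71, 1.09 and 1.34 CPM with the combination. LAA and combination libraries lay below every vehicle and olaparib library. The log2 fold change was -1.70 ± 0.22 with LAA (3.25-fold lower, edgeR adjusted p = 0.000223) and -2.19 ± 0.23 with the combination (4.57-fold lower, edgeR adjusted p = 1.85e-06), against -0.10 ± 0.20 with olaparib (edgeR adjusted p = 0.916). LAA and the combination left 30.6 and 21.97% of the vehicle level, and the means reached, 1.92 and 1.38 CPM, were close to the THP-1 vehicle mean of 1.64 ± 0.516 CPM. THP-1 libraries were at 1.81, 1.07 and 2.06 CPM in vehicle and 3.23, 4.43 and 2.86 CPM with the combination, without overlap (1.08 ± 0.29, 2.11-fold higher, edgeR adjusted p = 0.00548). LAA libraries at 2.92, 3.54 and 2.90 CPM and olaparib libraries at 3.27, 2.21 and 2.38 CPM also all lay above vehicle. Their log2 differences of 0.91 ± 0.29 and 0.66 ± 0.29 were not called (edgeR adjusted p = 0.132 and 0.477).

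**Figure D3:**
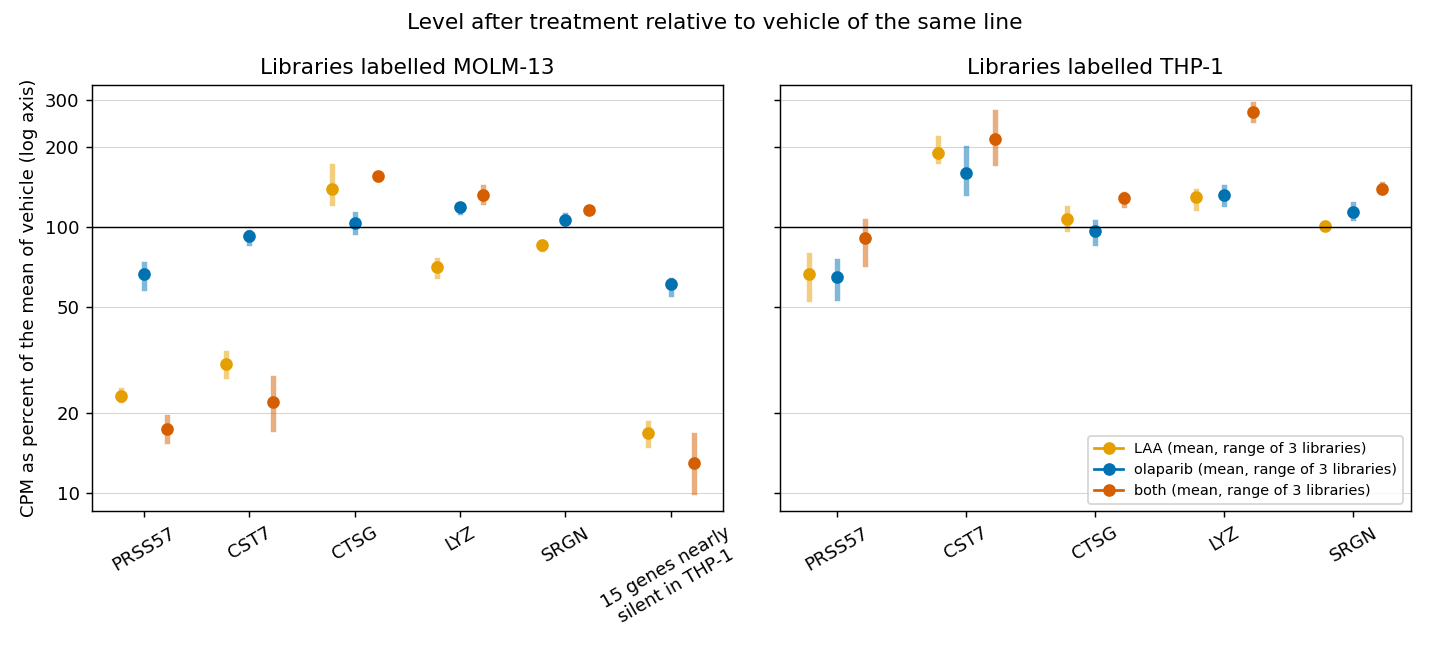
Mean CPM with LAA, olaparib and the combination as percent of the vehicle mean of the same line (points, log axis), with bars from the lowest to the highest of 3 libraries, for PRSS57, CST7, CTSG, LYZ and SRGN. Under the MOLM-13 label PRSS57 and CST7 with LAA lie at 23.1 and 30.6%, beside the 16.9% of the 15 summed genes that are nearly silent in THP-1 (chosen in part by their olaparib counts), while LYZ with the combination lies at 132% there and at 269.9% in THP-1.

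SRGN, the proteoglycan core that binds the proteases in the granule, was higher with the combination in THP-1. Its libraries were at 1876, 1797 and 1736 CPM in vehicle, 1805, 1779.8 and 1871 CPM with LAA, 2206, 1952 and 1994 CPM with olaparib and 2445, 2606 and 2446 CPM with the combination. LAA overlapped vehicle, olaparib lay above it and the combination above all. The combination reached 0.46 ± 0.05 on the log2 scale (1.38-fold, edgeR adjusted p = 1.81e-07), LAA 0.01 ± 0.05 (edgeR adjusted p = 0.969) and olaparib 0.19 ± 0.05 (edgeR adjusted p = 0.189). The combination exceeded LAA by 0.45 and olaparib by 0.28 on the log2 scale (edgeR adjusted p = 3.34e-07 and 0.000327). The interaction of 0.27 ± 0.08 (edgeR adjusted p = 0.0283) was lost in 5 of 12 fits that left out 1 library, with adjusted p up to 0.0937.

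Under the MOLM-13 label SRGN was at 2383, 1986 and 1936 CPM in vehicle, 1733, 1819 and 1847 CPM with LAA, 2179, 2169 and 2332 CPM with olaparib and 2454, 2466 and 2391 CPM with the combination. The first vehicle library stands above the other two, and LAA libraries lay below and combination libraries above all 3. Neither difference from vehicle was called with edgeR, at -0.22 ± 0.08 with LAA (edgeR adjusted p = 0.185) and 0.21 ± 0.08 with the combination (edgeR adjusted p = 0.0898). Without vehicle replicate 1 the latter was 0.31 (edgeR adjusted p = 0.00983), and DESeq2 gave 0.22 (adjusted p = 0.0356). The combination was higher than LAA, at 0.44 on the log2 scale (edgeR adjusted p = 0.00123).

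MPO did not pass the test with any treatment in either line. Libraries labelled MOLM-13 ranged from 8.59 to 8.81 CPM in vehicle, 6.82 to 9.003 CPM with LAA, 7.65 to 9.21 CPM with olaparib and 7.51 to 8.35 CPM with the combination. THP-1 libraries ranged from 4.52 to 7.01 CPM in vehicle, 4.82 to 6.71 CPM with LAA, 6.64 to 7.81 CPM with olaparib and 5.77 to 7.71 CPM with the combination. Treatments overlapped vehicle except the combination under the MOLM-13 label, whose 3 libraries lay below it. For the combination the 95% interval of the log2 difference was -0.42 to 0.18 under the MOLM-13 label and -0.14 to 0.61 in THP-1. At this depth a change within those limits could not be told from none.

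**Figure D4:**
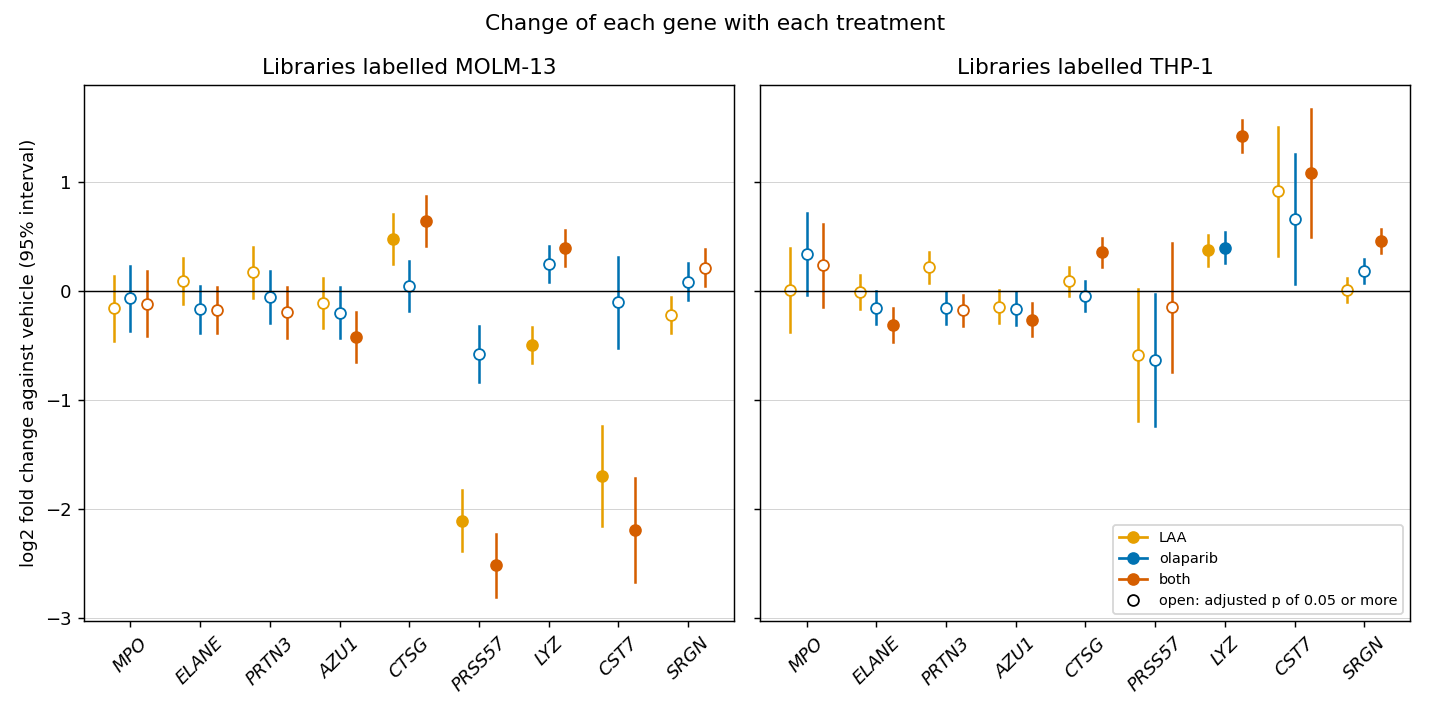
Log2 fold change of each gene against vehicle with its 95% interval, for LAA, olaparib and the combination; filled points have an edgeR adjusted p under 0.05 and open points do not. In THP-1 LYZ with the combination stands highest at 1.42, and under the MOLM-13 label PRSS57 and CST7 reach -2.52 and -2.19 with the combination.

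Set against the single compounds in THP-1, the combination raised 3 of the 9 over LAA (LYZ, SRGN and CTSG) and lowered 2 (ELANE and PRTN3), where 20.3% of all genes were called, 10.1% higher and 10.2% lower. Over olaparib it raised LYZ, SRGN and CTSG and lowered 0 (24.2% of all genes called, 12.3% higher and 11.9% lower). The interaction was called for those 3, all higher, where 7.57% of all genes were called, 4.04% higher and 3.54% lower. In the other line it raised LYZ and SRGN over LAA and lowered PRTN3 (14.9% of all genes called, 6.68% higher and 8.25% lower). Against olaparib it raised CTSG (0.60, edgeR adjusted p = 0.00144) and lowered PRSS57 (-1.94, edgeR adjusted p = 2.66e-08) and CST7 (-2.09, edgeR adjusted p = 5.43e-06), 3 of 9 where 7.48% of all genes were called, 2.89% higher and 4.59% lower. LYZ was the 1 member with a called interaction there (2.04% of all genes called, 0.712% higher and 1.32% lower). These comparisons share the combination libraries, and the interaction shares all 4 groups.

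Without treatment the lines differed in 4 of the 9 members, where 4.48% of 17089 genes were called, 2.49% higher in THP-1 and 1.99% lower. CTSG was higher in THP-1 than under the MOLM-13 label (log2 difference 0.83 ± 0.10, edgeR adjusted p = 3.2e-07). PRSS57 (-2.96 ± 0.17, edgeR adjusted p = 1.3e-13), CST7 (-1.93 ± 0.245, edgeR adjusted p = 2.14e-06) and MPO (-0.60 ± 0.16, edgeR adjusted p = 0.024) were lower. The MPO call was lost in 5 of 6 fits that left out 1 library, with adjusted p up to 0.209, and its value was -0.46 without THP-1 vehicle replicate 2. ELANE (0.32 ± 0.10, edgeR adjusted p = 0.0518) and SRGN (-0.22 ± 0.07, edgeR adjusted p = 0.0513) lay just outside the threshold. DESeq2 called both (adjusted p = 0.0286 and 0.0144). LYZ was not called, with a 95% interval of -0.06 to 0.25.

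The effect of LAA differed between the lines for 3 members, PRSS57, CST7 and LYZ, where 0.14% of all genes were called, 0.129% higher and 0.0117% lower. As THP-1 minus the MOLM-13 label, the log2 differences were 1.53 ± 0.26 for PRSS57 (edgeR adjusted p = 0.00262), 2.62 ± 0.35 for CST7 (edgeR adjusted p = 6.43e-05) and 0.87 ± 0.11 for LYZ (edgeR adjusted p = 2.29e-05). The effect of the combination differed for these 3 genes too (2.13% of all genes called, 1.53% higher and 0.597% lower), at 2.38 ± 0.25, 3.28 ± 0.36 and 1.04 ± 0.11 (edgeR adjusted p = 3.21e-07, 3.79e-07 and 3e-07). For the effect of olaparib no member differed with edgeR (0.00585% of all genes called, 0% higher and 0.00585% lower). At an unadjusted edgeR p under 0.05 there was 1 of 9, CST7, and the share of all genes under that p is not given here. DESeq2 called 0 of the 9 and 3 genes in all. PRSS57 and CST7 start higher under the MOLM-13 label, whereas LYZ had no called difference in vehicle. The summed genes nearly silent in THP-1 were at 16.9% of vehicle with LAA and 12.9% with the combination under this label. Their part in these line differences was not tested. CTSG had no called difference in effect between the lines (-0.38 ± 0.13 for LAA and -0.28 ± 0.13 for the combination, edgeR adjusted p = 0.547 and 0.3).

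Genes that act around these proteins were counted from lists chosen with earlier results of these data known. How far their calls, and those of the neighbours below, depend on single libraries or settings was not examined. Of 12 transcription factors of granulocyte and monocyte genes, the combination in THP-1 raised 2 and lowered 5, where 13.5% of all genes rose and 13.5% fell. CEBPB, which drives emergency granulocyte production and monocyte genes, went from 54.4 ± 4.78 to 109.8 ± 11.5 CPM (2.01-fold, edgeR adjusted p = 8.75e-10). CEBPA, needed for granulocyte commitment, fell from 448 ± 14.2 to 353 ± 22.9 CPM (edgeR adjusted p = 0.000284), and the monocyte factor IRF8 from 798 ± 39.5 to 619.7 ± 33.2 CPM (edgeR adjusted p = 8.23e-06). Under the MOLM-13 label the combination raised 1, CEBPB, from 55.3 ± 1.61 to 76.4 ± 5.76 CPM (edgeR adjusted p = 0.00229), and lowered 0, where 12.2% of all genes were called. Neither single compound gave a call in this list in either line. The list's median log2 fold change with the combination was -0.15 in THP-1 and -0.05 under the MOLM-13 label, against -0.012 and 0.0025 over all genes.

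Among 10 tested genes of protease activation and inhibition, the combination raised 3 and lowered 4 in THP-1 and raised 1 and lowered 4 under the MOLM-13 label (27.1% and 12.2% of all genes called). CTSC, the enzyme that activates the granule proteases, was 1.39-fold higher in THP-1, at 172.5 ± 9.25 against 124 ± 1.93 CPM (edgeR adjusted p = 1.14e-06). CTSC was also the gene raised under the MOLM-13 label, from 117 ± 2.76 to 137 ± 0.881 CPM (edgeR adjusted p = 0.0315). The cysteine protease inhibitors CST3 and CSTB fell in THP-1 and under the MOLM-13 label. In THP-1 CST3 went from 766 ± 48.7 to 518 ± 47.0 CPM (edgeR adjusted p = 1.61e-06). CSTB fell under the MOLM-13 label from 119.6 ± 3.56 to 78.8 ± 8.56 CPM (edgeR adjusted p = 0.000361). SERPINB1, an intracellular inhibitor of elastase, cathepsin G and proteinase 3, fell under the MOLM-13 label with LAA (1.36-fold, edgeR adjusted p = 0.0164) and with the combination (1.43-fold, edgeR adjusted p = 0.000885). A2M, a broad protease inhibitor, fell there 1.72-fold and 1.88-fold (edgeR adjusted p = 0.0112 and 0.000675). With the combination in THP-1 SERPINB1 and A2M fell 1.35-fold and 1.76-fold (edgeR adjusted p = 0.000916 and 0.000524). LAA raised SERPINB8 1.26-fold in THP-1 and 1.27-fold under the MOLM-13 label (edgeR adjusted p = 0.0101 and 0.0225).

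Among 22 other granule genes, 7 to 10 had 0 counts in a whole group, among them the defensin genes DEFA1, DEFA1B and DEFA3, LCN2, OLFM4 and CEACAM8 in every group. Of 9 tested in THP-1 the combination raised 2 and lowered 1, near the 27.1% of all genes called. CHI3L1, which encodes a chitinase-like granule protein, rose from 1348 ± 21.5 CPM to 1661 ± 35.1 with the combination (edgeR adjusted p = 5.12e-05) and to 1682 ± 55.7 with olaparib alone (edgeR adjusted p = 0.0021). CAMP, the cathelicidin gene of secondary granules, stood at only 0.252 ± 0.0864 CPM in vehicle and 1.01 ± 0.158 CPM with the combination (edgeR adjusted p = 0.0155). RNASE2, an eosinophil and neutrophil ribonuclease, fell from 454 ± 34.3 to 381 ± 24.6 CPM (edgeR adjusted p = 0.00402). None of the 10 tested under the MOLM-13 label was called with edgeR for any treatment against vehicle.

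Azurophil granules share contents with lysosomes, so lysosomal hydrolases and membrane proteins were counted too. In THP-1 the combination raised 9 of 22 and lowered 2 (13.5% of all genes higher and 13.5% lower), with the cathepsins CTSD (1.55-fold, edgeR adjusted p = 2.23e-06) and CTSL (1.39-fold, edgeR adjusted p = 2.5e-05) higher and the mannosidase MAN2B1 lower (1.46-fold, edgeR adjusted p = 7.4e-07). Under the MOLM-13 label it raised 0 and lowered 5 (4.85% of all genes higher and 7.35% lower), among them LIPA, CTSB and CTSS (1.31-fold, 1.26-fold and 1.204-fold lower, edgeR adjusted p = 0.00283, 0.00965 and 0.0116). LAA alone lowered 1 of the 22 in each line, MAN2B1 in THP-1 (1.29-fold, edgeR adjusted p = 0.00233) and CTSZ under the MOLM-13 label (1.245-fold, edgeR adjusted p = 0.0285). Of all genes LAA lowered 0.551% in THP-1 and 1.08% under the MOLM-13 label. The difference between the lines was not tested for the list.

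For MPO, heme synthesis and folding in the endoplasmic reticulum matter. Of 11 such genes the combination raised 5 and lowered 2 in THP-1 and raised 2 and lowered 1 under the MOLM-13 label (27.1% and 12.2% of all genes called). CALR, the chaperone that binds the MPO precursor, went from 947 ± 5.62 to 1360.0 ± 26.2 CPM in THP-1 (edgeR adjusted p = 9.37e-09) and from 866 ± 30.2 to 1117 ± 16.7 CPM under the MOLM-13 label (edgeR adjusted p = 0.00207). PDIA3 was 1.31-fold higher in THP-1 (edgeR adjusted p = 3.93e-06) and CANX 1.22-fold higher under the MOLM-13 label (edgeR adjusted p = 0.0324). The heme enzyme PPOX fell 1.73-fold and 1.58-fold (edgeR adjusted p = 9.83e-06 and 0.00895), and ALAS1, the first enzyme of heme synthesis, rose 1.201-fold with LAA and 1.27-fold with the combination in THP-1 (edgeR adjusted p = 0.0388 and 0.00031). MPO itself was not called, as given above. Of 13 tested genes for chondroitin sulfate, the sugar chain that serglycin carries, the combination raised 1 in THP-1, CHST12 (1.43-fold, edgeR adjusted p = 0.00081), where 27.1% of all genes were called. It raised 3 under the MOLM-13 label, CHSY1, CHSY3 and CSGALNACT1 (1.26-fold, 1.89-fold and 1.69-fold, edgeR adjusted p = 0.0279, 0.0261 and 0.0425). LAA alone raised CSGALNACT1 there 2.11-fold (edgeR adjusted p = 0.0188).

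CST7 and SRGN also serve cytotoxic lymphocytes, so markers of those cells were set beside them. Of 10 genes of cytotoxic granules, GZMK and FASLG had 0 counts in every group and GZMA, GZMB and GZMH were at 0 in several. The summed level was 7.27 to 13.8 CPM in libraries labelled MOLM-13 and 14.3 to 26.0 CPM in THP-1. NKG7 fell with the combination under the MOLM-13 label from 8.86 ± 0.503 to 5.01 ± 1.27 CPM (edgeR adjusted p = 0.00525), and no other gene of the list was called for a treatment against vehicle. The sum of 8 T and NK cell markers was 56.8 to 60.1 CPM in THP-1 vehicle and 73.8 to 76.6 CPM with the combination. NCAM1 held most of it, at 56.3 ± 1.83 and 74.3 ± 1.65 CPM, and CD3E and KLRD1 were at 0 in both groups. Of its 2 tested genes, NCAM1 rose and TRAC fell with the combination (edgeR adjusted p = 0.000107 and 0.0278). Under the MOLM-13 label the sum was 9.36 to 14.8 CPM over the 4 groups, and neither tested gene was called. The part of these markers in the member results was not tested.

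Protein-coding genes that start within 100 kb of a member were looked at for shared movement. With the combination 27.1% of all genes were called in THP-1 and 12.2% under the MOLM-13 label, and with LAA 1.49% and 1.88%. The neighbours MKS1, MED16, RNF126, HCN2, FSTL3, APMAP, VPS26A and KIF1BP were tested and not called for any treatment against vehicle. CFD encodes the complement protease factor D and lies next to ELANE. It fell with LAA and with the combination in THP-1 and under the MOLM-13 label. Its level in THP-1 was 530.5 CPM in vehicle, 399.8 with LAA (log2 fold change -0.41 ± 0.07, edgeR adjusted p = 0.00119) and 332 with the combination (-0.68 ± 0.07, edgeR adjusted p = 3.85e-08). The corresponding CFD levels under the MOLM-13 label were 623, 466 and 367 CPM (-0.42 ± 0.11 and -0.77 ± 0.11, edgeR adjusted p = 0.0486 and 6.7e-05). ELANE and PRTN3 had no call with LAA in either line. PTBP1 and PLPPR3, on the other side of the cluster, were not called for any treatment against vehicle. Near MPO, the lactoperoxidase gene LPO rose with the combination in THP-1 from 5.04 to 13.6 CPM (1.42 ± 0.18, edgeR adjusted p = 1.17e-06), and TSPOAP1 fell there (-0.996 ± 0.15, edgeR adjusted p = 1.48e-05) and under the MOLM-13 label (-0.76 ± 0.18, edgeR adjusted p = 0.00701). Around PRSS57, PALM fell with the combination in THP-1 (-0.84 ± 0.12, edgeR adjusted p = 2.8e-06) and under the MOLM-13 label (-0.34 ± 0.11, edgeR adjusted p = 0.0488), and POLRMT rose in THP-1 (0.31 ± 0.09, edgeR adjusted p = 0.00807). Other neighbours called with the combination in THP-1 were ARID3A near ELANE, lower (-0.33, edgeR adjusted p = 0.00116), and, higher, R3HDM4 near ELANE (0.20), SUPV3L1 near SRGN (0.36) and ACSS1 near CST7 (0.33, edgeR adjusted p = 0.0384, 0.00398 and 0.0394). The granzyme and chymase genes beside CTSG, GZMB, GZMH and CMA1, stayed at or under 0.24 CPM in every group mean. The one tested neighbour of LYZ, YEATS4, was not called.

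Over the 8 group means, with each line centred on its own mean of log2 CPM, pairs of members were compared by correlation. These are descriptions over 8 points that share libraries within a group and scaling. LYZ and SRGN had a Pearson r of 0.96, ELANE and PRTN3 0.83, and PRSS57 and CST7 0.84. The last pair had opposite signs against vehicle in THP-1 (log2 differences of -0.59, -0.63 and -0.15 for PRSS57 and 0.91, 0.66 and 1.08 for CST7) and the same sign under the MOLM-13 label. ELANE ran against SRGN (-0.96) and LYZ (-0.92), and CTSG against PRSS57 (-0.79). Among 11950 other protein-coding genes, those most like LYZ were GTF2H1, TRIM22 and TMED2 (r = 0.9965, 0.9936 and 0.9908), and those most like SRGN were INTS6L, CEACAM19 and HIP1R (r = 0.9969, 0.9952 and 0.9919). For PRSS57 they were ELK1, TMEM187 and RAP2A (r = 0.9967, 0.9755 and 0.9749), for CTSG SRF, LCMT2 and MAX (r = 0.9945, 0.9897 and 0.9805), and for ELANE WDR6, KIAA1191 and CDKN2C (r = 0.9973, 0.9927 and 0.9882). Such genes were picked as the highest of 11950 over 8 points, a choice that by itself favours a high r. Shared control was not tested.

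Part of the LYZ and AZU1 reads could be shared with other genes. Of stretches of 50 bases in their transcripts, 145 of 1761 in LYZ and 83 of 1781 in AZU1 also occurred in transcripts of other genes, and 0 did in the other 7 members. Genes overlapping a member on the genome had at most 12 counts in a library for RPS2P52 in PRSS57, 0 for AC020656.1 antisense to LYZ and 20 for RF00017 in SRGN. The library kit does not mark strand.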

How the data were processed

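Polyadenylated RNA of 24 libraries was sequenced, 3 for each of 8 groups, with a kit that does not mark strand, per the labels' protocols. The deposited table gives, per gene and library, raw read counts and FPKM values computed by the authors; per the submitters' processing notes HISAT2, SAMtools, DESeq2 and build hg38 were used, and the name of the counting program or annotation is not given in the sources used here. Counts were analysed as deposited, and FPKM served only to compare levels between genes.

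Genes passing edgeR's filterByExpr were tested with edgeR 4.0.16 (R 4.3.3), TMM scaling and the quasi-likelihood F test, with Benjamini-Hochberg adjustment over all genes tested and a threshold of 0.05. Each line was fitted over its 12 libraries, for 3 treatments against vehicle, the combination against each compound and the interaction, and the differences between lines in a fit of all 24, giving 16 comparisons. A standard error is the log2 fold change divided by the root of F, and ± beside a level is the SD. CPM used TMM factors over all 24 libraries. The test was run on simulated counts with set fold changes as a check of the code, and its outcome for small changes is not given here. Depth of 18666259 to 25265870 counts leaves CST7, PRSS57 and MPO at 21 to 492 counts. No columns were identical between libraries of the same group, and libraries of different groups were not compared in this way.

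The members and gene lists were chosen with earlier results of these data known. Named by rule were all 9 members, up to 3 called genes of each list and comparison by smallest adjusted p, tested protein-coding neighbours and the 3 genes most like each member; CTSC, CST3, CSTB and NKG7, further values of genes so named, and the neighbours and likenesses printed were picked from these. Alternatives were DESeq2 1.42.0, its size factors, total-count scaling, no filter, a replicate block, a fit of the 6 libraries compared, and leaving out each library. They were followed for the 9 members and for the number of calls over all genes, not for single list genes or neighbours. A planned description of the proteins was not made, as no protein sequences were used here.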

Additional observations from a re-analysis of the deposited data

Results flagged for a closer look

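Among the 9 genes, 6 effects differed between the lines by the test of the difference itself, as THP-1 minus the MOLM-13 label on the log2 scale. For LAA these were PRSS57 (1.53), LYZ (0.87) and CST7 (2.62), with edgeR adjusted p = 0.00262, 2.29e-05 and 6.43e-05. For the combination they were PRSS57 (2.38), LYZ (1.04) and CST7 (3.28), with edgeR adjusted p = 3.21e-07, 3e-07 and 3.79e-07. All 3 genes kept these calls in each of the 12 fits that left out 1 library. The genes nearly silent in THP-1 fell to 16.9% of vehicle with LAA and 12.9% with the combination under the MOLM-13 label, and their part in these differences was not tested.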

How the results depend on the processing

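No called difference of a member changed its direction in any alternative. Of 45 called pairs of member and comparison, 298 of 330 fits without 1 library and 240 of 242 fits under other settings kept the call. The number of the 9 called moved by more than 1.5 times in these cases. Olaparib under the MOLM-13 label went from 0 to 1 with DESeq2 and to 1 with no filter on low counts. The combination against LAA there went from 3 to 5 with no filter and ranged from 2 to 5 without 1 library. The interaction there went from 1 to 2 with total-count scaling and to 2 with DESeq2. In THP-1, LAA went from 1 to 2 with no filter (1 to 2 without 1 library), olaparib from 1 to 2 with DESeq2 (0 to 1 without 1 library), and the interaction ranged from 1 to 3 without 1 library. The lines in vehicle differed in 4 members, and in 7 with no filter. Smaller moves were the combination against vehicle from 6 to between 5 and 7 in THP-1 and from 5 to between 4 and 6 under the MOLM-13 label, LAA there from 4 to 3, the combination in THP-1 against LAA from 5 to 4 and against olaparib from 3 to 4, the THP-1 interaction from 3 to between 2 and 4 under other settings, and the lines in vehicle from 4 to 3 without 1 library and to 6 with other scalings or DESeq2. The causes were not tested.

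In deviations from group means, same-numbered libraries correlated at -0.12 to 0.19 under the MOLM-13 label (4 of 18 pairs over 0.1) and at -0.096 to 0.062 in THP-1 (0 of 18). Differently numbered libraries correlated at -0.19 to 0.25 (2 of 36) and at -0.070 to 0.107 (1 of 36). With 3 libraries per group, a weak pairing by number cannot be told from none. With the replicate block the CTSG interaction in THP-1 was 0.31 (edgeR adjusted p = 0.0546).

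Over all genes, LAA under the MOLM-13 label gave 303 calls, 527 with DESeq2 and 502 with no filter, and olaparib 1, 22 and 194. Olaparib in THP-1 gave 44, 96 and 124, and LAA there 243, 352 and 383. Without 1 library these counts ran from 113 to 469 (LAA) and 0 to 7 (olaparib) under the MOLM-13 label and from 114 to 209 and 15 to 79 in THP-1. The combination against vehicle gave 1972 calls under the MOLM-13 label, 1043 to 1578 without 1 library and 2947 from the 6 libraries alone, and 4423 in THP-1 (3476 to 4114 without 1 library). Against LAA, the combination under the MOLM-13 label gave 2413 calls (1029 to 3168 without 1 library), and against olaparib 1208 (624 to 918). From the 6 libraries alone, LAA gave 199 calls under the MOLM-13 label and 380 in THP-1. The interaction gave 329 under the MOLM-13 label (206 to 496 without 1 library, 523 with DESeq2, 555 with no filter) and 1237 in THP-1 (797 to 1478 without 1 library). The lines differed in 765 genes in vehicle (477 to 578 without 1 library), in 24 for the LAA effect (13 to 22, 47 with DESeq2, 102 with no filter), in 1 for the olaparib effect (0 to 8, 3 and 34) and in 364 for the combination effect (211 to 353, 627 and 603). Total-count scaling moved the share of higher calls with the combination under the MOLM-13 label from 39.8 to 54.0% against vehicle, from 44.8 to 61.5% against LAA and from 38.7 to 59.3% against olaparib, and for the interaction from 34.95 to 51.5%.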
